A study of Mus musculus with 40 samples.

Results

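Hair shaft and inner root sheath genes were followed in 40 libraries of mouse mammary gland tissue. The set holds the keratin-associated proteins (symbols beginning with Krtap and a digit), a fixed list of hair keratins, and Tchh, Padi3 and Hoxc13. Of 47729 gene symbols, 78 matched, and the 76 with at least 10 counts over all libraries were kept. Krtap13, with 3 counts, and Krtap14, with 1 count, fell under that minimum. The members were 55 keratin-associated proteins, 18 keratins and 3 other genes.

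All mice were Balb/cJ females ovariectomised at 21 days of age and given 7 days to recover. Every mouse ate a purified diet based on AIN 93G. Estrogen mice drank water with 200 nM estrogen and were sampled at 60 h or 84 h, each time beside untreated controls. CLA mice ate the diet with 2.7% conjugated linoleic acid (CLA, a mixture of fatty acid isomers) and were sampled at 108 h or 132 h, beside their own controls. Each of the 8 groups held 5 mice, and the tissue was the number 4 inguinal gland, taken between the teat and the lymph node, with the node removed. By its title, the series asks about mammary growth under CLA that does not depend on estrogen.

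A hair is built by cells that leave the matrix at the base of the follicle and harden as they move outward. The inner root sheath forms first around the shaft and is made of type I keratins (Krt25, Krt27, Krt28) paired with type II keratins (Krt71 to Krt74) and of trichohyalin (Tchh), which is modified by the peptidylarginine deiminase Padi3. Hoxc13, a transcription factor of the matrix, and Krt35 come early in the shaft. The cortex keratins Krt31, Krt33a, Krt33b and Krt34 (type I) and Krt81, Krt83 and Krt86 (type II) follow, with Krt32 and Krt82 in the cuticle. The keratin-associated proteins cross-link these filaments through cysteine or embed them in glycine and tyrosine rich matrix, and are the last shaft proteins to be made. Krt84 is a hair-type keratin best known from filiform papillae of the tongue.

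The libraries held 18.2 to 40.0 M counts, and the values below are CPM, counts per M of the TMM-scaled library (M is mega). Lists of mammary luminal and adipocyte genes, which mark the labelled tissue, summed to 13.3 to 482.8 and 9827 to 25680 CPM over the libraries. In bulk tissue, fewer cells of a type and less RNA per cell cannot be told apart. Hair genes stood far apart between mice of 1 group: 11 libraries held over 100 CPM of the 76 genes together, and the other 29 held 2.78 to 78.5 CPM. Those 11 were controls (1 at 84 h, 3 at 108 h, 3 at 132 h) and estrogen mice (1 at 60 h, 3 at 84 h). None of the 10 CLA libraries was among them. At the most, in control replicate 2 at 108 h, the genes took 0.493% of the library (95% Wilson interval 0.491 to 0.496%; intervals here cover counting error only).

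The members lie in a few clusters (GRCm38). Chromosome 11 carries 32 of them between 99315516 and 100096224, the type I keratins beside 23 keratin-associated proteins. Chromosome 15 carries 10, the type II keratins and Hoxc13, between 101459061 and 102928814. Chromosome 16 carries 22 keratin-associated proteins between 88610709 and 89571183. The composition of each keratin-associated protein was computed from its GENCODE M21 coding sequence. It placed 19 in the high glycine-tyrosine type (glycine and tyrosine at least 35% of residues). Members rich in both went there too, such as Krtap28-10 with 42.9% cysteine. Another 16 were of the ultra-high sulfur type (otherwise over 30% cysteine). The remaining 19 are called high sulfur here, with no minimum of cysteine: Krtap15 has 4.0% and Krtap7-1 9.2%. The pseudogene Krtap19-9a was left unplaced. Krtap4-13 and Krtap5-1 shared 81.3% and 60.6% of their 50-base windows with other genes, so their counts are uncertain, and 53 members shared at least 1 such window.

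Because the members moved together between libraries, their promoters are shown. RefSeq promoter windows (GRCm38.p6, 250 bases before to 50 after the start) matched 63 of the 76. The sequence TATAAA was read on the gene's strand 50 to 11 bases before the start in 41 of these 63 (65.1%) and in 2.89% of all 27025 genes with a window. Among the keratin-associated proteins it was there in 33 of 49. Over the whole 300 bases and both strands, the shares were 82.5% and 15.7%. The motif CTTTGA, searched the same way over 300 bases, was in 31.7% of members and 18.2% of genes, and CAATAAA, which shares the letters ATAAA with the first motif, was in 1.59% and 5.33%. These matches are letters in a window and no evidence of binding. The 100 bases before the start follow for 2 root sheath keratins, a cortex keratin and 3 keratin-associated proteins, with TATAAA in capitals.
Krt71, chr15:101743098-101743197, minus strand: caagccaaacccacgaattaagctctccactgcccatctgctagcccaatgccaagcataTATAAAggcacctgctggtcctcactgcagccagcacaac
Krt25, chr11:99322952-99323051, minus strand: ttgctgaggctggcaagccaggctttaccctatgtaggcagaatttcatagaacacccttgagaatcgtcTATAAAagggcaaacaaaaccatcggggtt
Krt31, chr11:100050552-100050651, minus strand: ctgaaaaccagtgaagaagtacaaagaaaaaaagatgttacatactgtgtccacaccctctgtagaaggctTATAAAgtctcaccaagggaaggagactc
Krtap8-1, chr16:89487953-89488052, minus strand: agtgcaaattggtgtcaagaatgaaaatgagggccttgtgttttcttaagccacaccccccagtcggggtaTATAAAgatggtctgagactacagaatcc
Krtap3-1, chr11:99566631-99566730, minus strand: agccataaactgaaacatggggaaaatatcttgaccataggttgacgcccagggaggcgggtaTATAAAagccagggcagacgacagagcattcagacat
Krtap15, chr16:88828909-88829008, plus strand: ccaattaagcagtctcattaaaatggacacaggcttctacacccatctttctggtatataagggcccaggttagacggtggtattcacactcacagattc
Krtap15, shown as a member without the exact letters TATAAA, reads tatataag in these 100 bases. A search for the exact letters does not count such near matches. The highest level of Krtap15, 120.6 CPM, was in control replicate 2 at 132 h, among the libraries high in the other members.

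**Figure D1:**
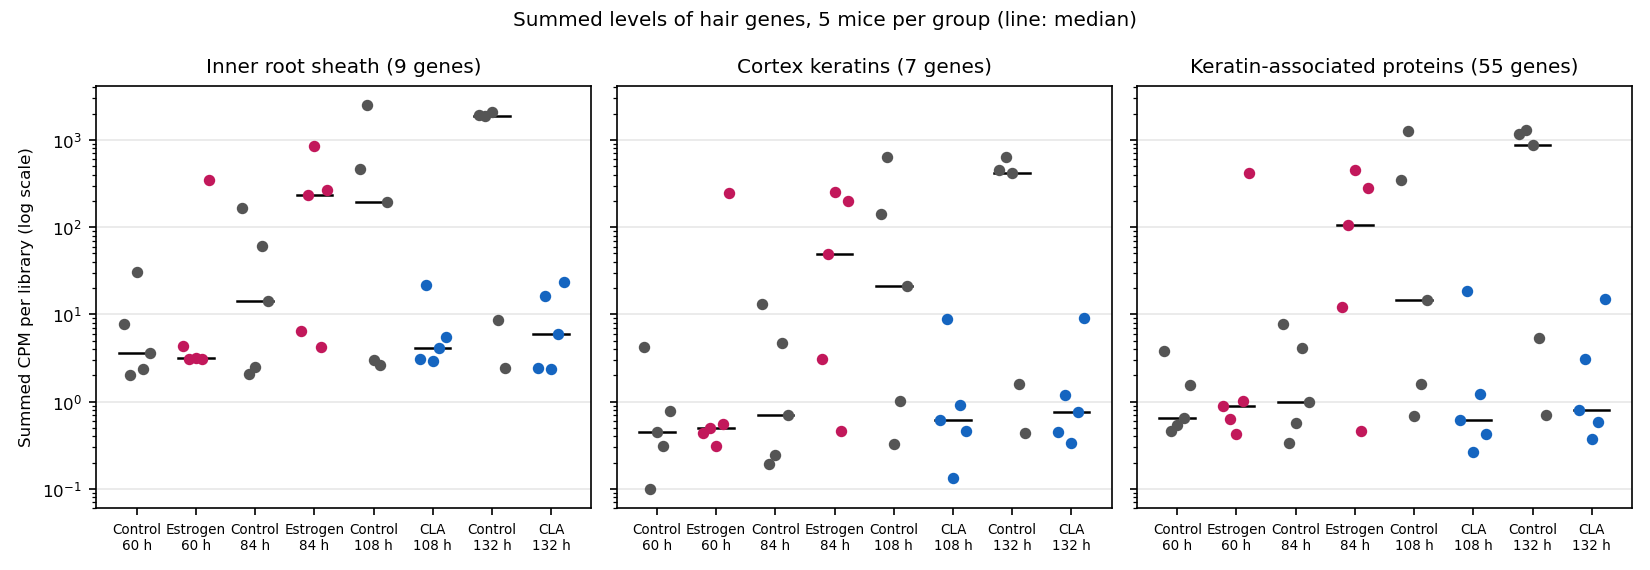
Summed CPM (log axis) of inner root sheath genes, cortex keratins and keratin-associated proteins in each of 5 mice per group, with the group's median as a line. All 3 panels split the controls at 108 h and 132 h and the estrogen mice at 84 h into high and low libraries, while the CLA libraries stay low.

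Krt71, a type II keratin of all inner root sheath layers, had the highest deposited level per length of the set (mean 37.3 RPKM over the 40 libraries). In the controls at 132 h it measured 812, 715, 749, 2.24 and 0.397 CPM in replicates 1 to 5. The CLA mice of that time measured 0.449, 6.18, 0.151, 1.89 and 8.14 CPM. Replicates 1 to 3 of the controls thus stood far above every CLA mouse, while the other 2 controls lay among the CLA mice.

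At 108 h the control levels of Krt71 were 194, 888, 0.389, 0.481 and 79.6 CPM. With CLA they were 0.555, 7.82, 0.267, 1.15 and 1.91 CPM. Again 3 controls were above every CLA mouse, and the other 2 lay between the lowest and the second lowest of them.

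Estrogen mice at 84 h had 1.86, 99.2, 360, 0.676 and 90.7 CPM of Krt71, against 71.1, 0.286, 0.204, 23.3 and 5.58 CPM in their controls. At 60 h, the estrogen mice had 0.996, 0.538, 0.227, 0.603 and 136 CPM and the controls 2.09, 0.199, 15.9, 0.346 and 0.777 CPM. The groups overlapped at both times, and at 60 h a single estrogen mouse, replicate 5, stood above the rest.

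Krt25, a type I partner in the sheath, kept close to a fixed ratio to Krt71. Krt25 counts were 47% to 59.7% of Krt71 counts in all 13 libraries with over 10 CPM of Krt71. The type II keratin Krt72, which is restricted to the sheath cuticle, did not keep a fixed ratio in the same way. Its counts were 17.6%, 26.7% and 29.4% of Krt71 counts in the 3 high controls at 132 h, but 7.52% (95% interval 6.4 to 8.8%) in control replicate 1 at 84 h and 1.67% in control replicate 3 at 60 h.

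Krt74 and Tchh were low in counts. Krt74, annotated as a transcribed unitary pseudogene in GENCODE M21, reached 3.55 CPM at most. Tchh reached 10.7 CPM in control replicate 1 at 132 h and had 0 counts in 21 libraries. Padi3 differed from the rest of its class by a floor: its lowest level was 0.853 CPM, and it measured 0.853 to 2.31 CPM in the 10 CLA mice. Krt25, Krt28, Krt71 and Krt72 also had a count in every library, with lows of 2, 4, 4 and 1 counts against 19 for Padi3.

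**Figure D2:**
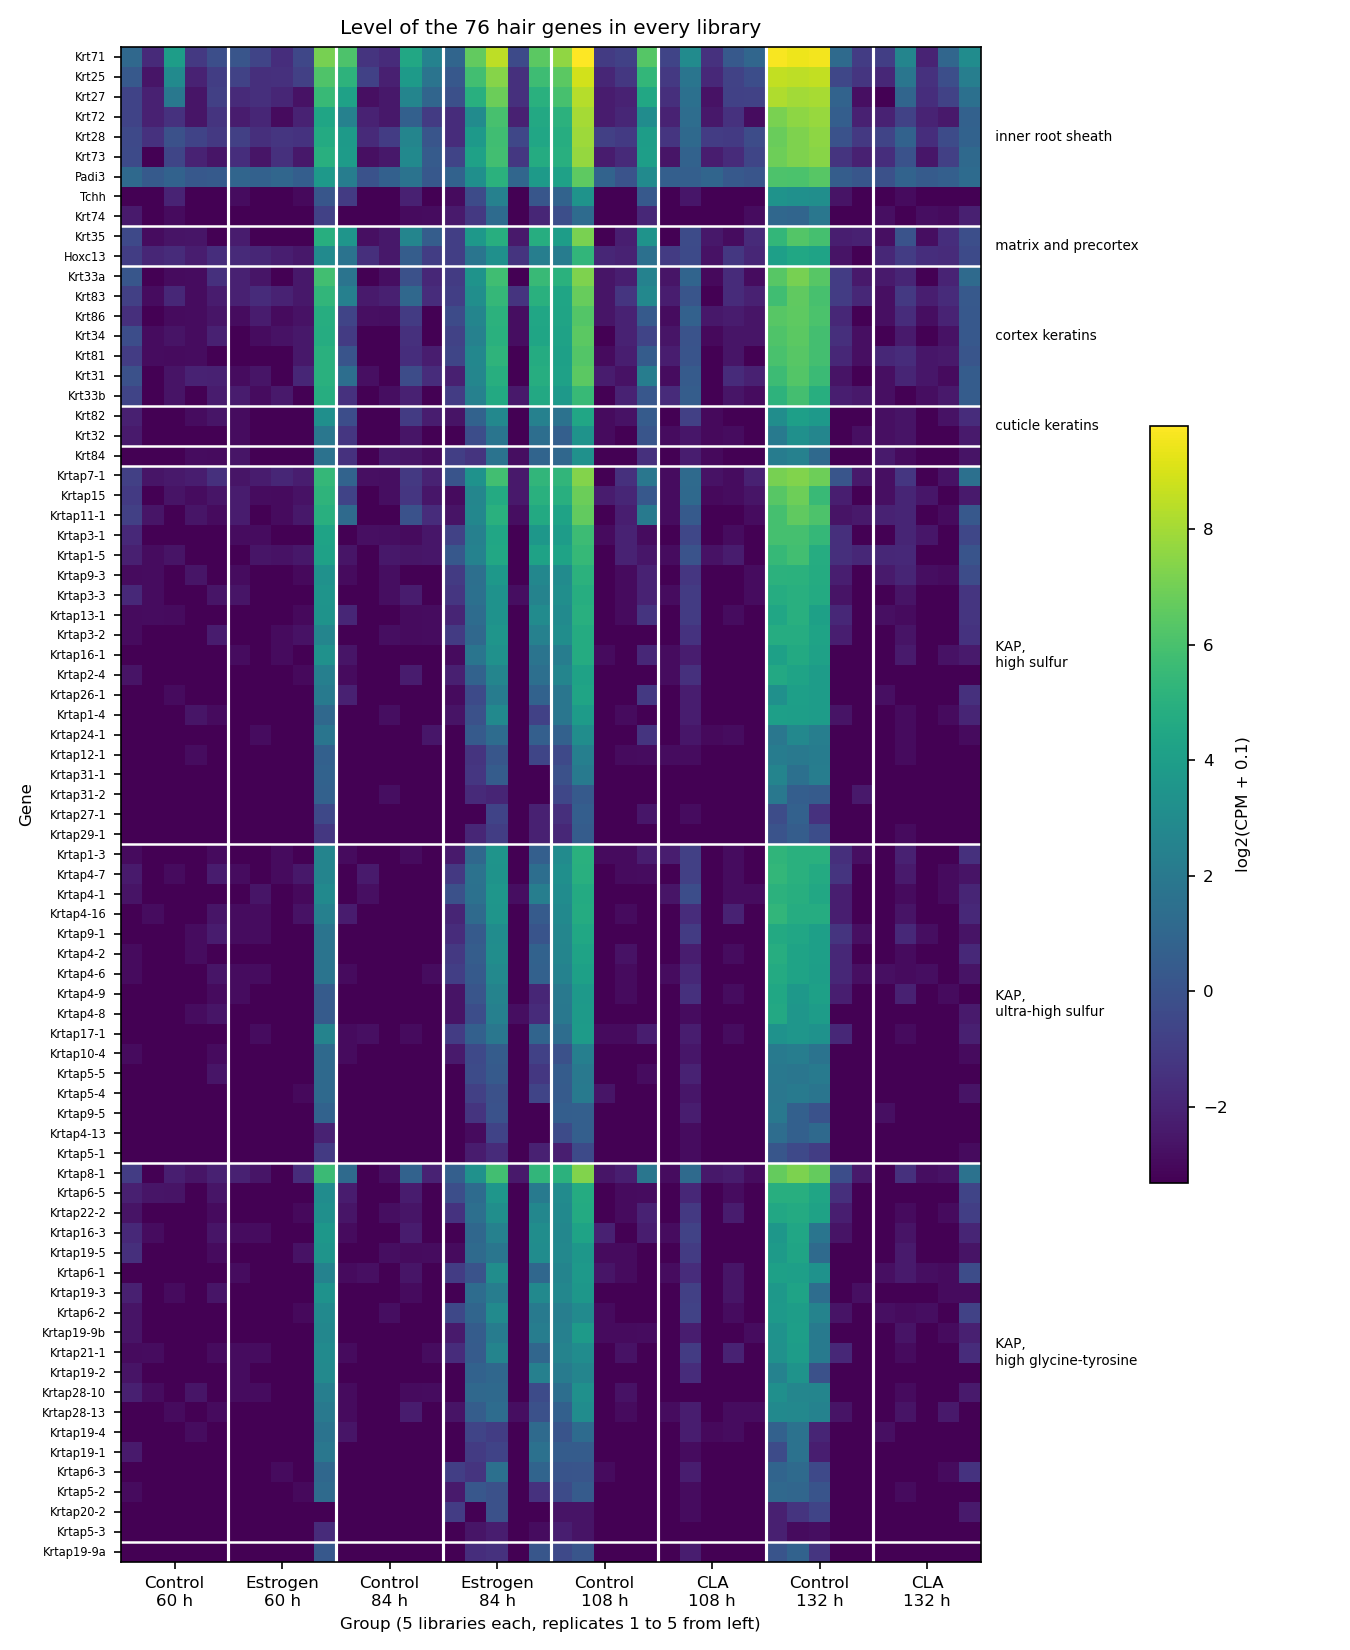
Level of each of the 76 genes, as log2(CPM + 0.1), with genes in rows by class and the 40 libraries in columns by group. High libraries are bright from the top to the bottom of the plot; controls 1, 4 and 5 at 84 h and control 5 at 108 h are bright in the upper rows and dark over most keratin-associated proteins; Padi3 shows in every column.

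Hoxc13 measured 17.0, 22.7, 19.3, 0.0588 and 0 CPM in the controls at 132 h and 0.180 to 0.678 CPM in their CLA mice. In the controls at 108 h it measured 4.51, 39.3, 0.162, 0.141 and 2.72 CPM. The libraries high in Hoxc13 were those high in Krt71. Krt35, an early shaft keratin, had 41.0, 78.3, 60.7, 0.118 and 0.132 CPM in the controls at 132 h, and at most 0.919 CPM in their CLA mice.

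The cortex keratin Krt33a measured 83.2, 139, 82.4, 0.412 and 0.0882 CPM in the controls at 132 h and 0.0898, 0.158, 0, 0.146 and 2.19 CPM with CLA. At 108 h the controls had 32.9, 153, 0.0648, 0.113 and 5.58 CPM and the CLA mice 0.0693, 1.78, 0.0267, 0.202 and 0.0329 CPM. The other 6 cortex keratins split the libraries alike, with highs of 58.1 CPM (Krt33b) to 107 CPM (Krt83). In estrogen mice at 84 h, Krt33a had 0.378, 10.4, 54.2, 0 and 47.8 CPM, against 3.19, 0, 0.0408, 0.838 and 0.178 CPM in controls.

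Cuticle keratins were less abundant. Krt82 had 8.44, 17.0 and 13.2 CPM in the 3 high controls at 132 h, and a high of 21.4 CPM in control replicate 2 at 108 h. Krt32 reached 10.4 CPM in that same mouse. Krt84, the hair-type keratin with a known site outside the follicle, peaked there too, at 9.82 CPM, and was at 0.107 CPM or less in all 10 CLA mice.

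Per length, the keratin-associated proteins with the highest deposited levels were Krtap7-1 (mean 24.6 RPKM) and Krtap8-1 (24.1 RPKM), close to Krt25 (24.2 RPKM). Both are short proteins, of 87 and 61 residues, from the cluster on chromosome 16. Krtap8-1, of the high glycine-tyrosine type, measured 104, 146, 103, 0.765 and 0.0882 CPM in the controls at 132 h and 0, 0.253, 0.0377, 0.0583 and 2.93 CPM with CLA. Krtap7-1 measured 138, 156, 119, 1.0 and 0.0882 CPM in the same controls. Its CLA mice had at most 2.75 CPM.

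Krtap3-1, a high sulfur protein of the cluster on chromosome 11, had 59.9, 60.0, 42.6, 0.235 and 0 CPM in the controls at 132 h. With CLA it had 0, 0.158, 0.0754, 0 and 0.586 CPM. Ultra-high sulfur members were lower still: Krtap4-7 had 40.3, 31.8, 25.9, 0.294 and 0 CPM in these controls and at most 0.095 CPM in their CLA mice. A value of 0 allows up to 3 counts, which was 0.132 CPM in control replicate 5 at 132 h.

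Members of the small families on chromosomes 7 and 10 were low. Krtap5-4, Krtap10-4 and Krtap12-1 peaked at 4.09, 4.94 and 4.97 CPM, all in control replicate 2 at 108 h. Krtap5-3 had 22 counts and Krtap20-2 had 63 over the 40 libraries. All 55 keratin-associated proteins had a count in the 3 high controls at 132 h, and 49, 52 and 43 of them reached 1 CPM there.

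The balance between sheath and shaft differed among libraries with much hair RNA. Shares are of the library's counts of the 76 genes, not corrected for gene length. In the 3 high controls at 132 h and in replicates 1 and 2 at 108 h, inner root sheath genes gave 47.1% to 60.0% and keratin-associated proteins 25.3% to 35.7%. In control replicate 1 at 84 h, with 200.5 CPM of hair genes, the sheath gave 81.7% (95% Wilson interval 80.7 to 82.6%) and the keratin-associated proteins 3.90% (3.45 to 4.42%). Control replicates 4 and 5 at 84 h and replicate 5 at 108 h were alike, with keratin-associated proteins at 5.30%, 5.52% and 5.90%.

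The amount of hair RNA did not set the order of these shares. Estrogen replicate 2 at 84 h held 409 CPM of hair genes and 34 keratin-associated proteins at 1 CPM or more. Control replicate 5 at 108 h held 244.9 CPM and 4 of them. Estrogen replicate 1 at 84 h held 23.3 CPM, less than control replicate 4 at 84 h with 78.5 CPM, yet 52.6% of its hair counts were keratin-associated proteins (interval 49.0 to 56.2%).

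**Figure D3:**
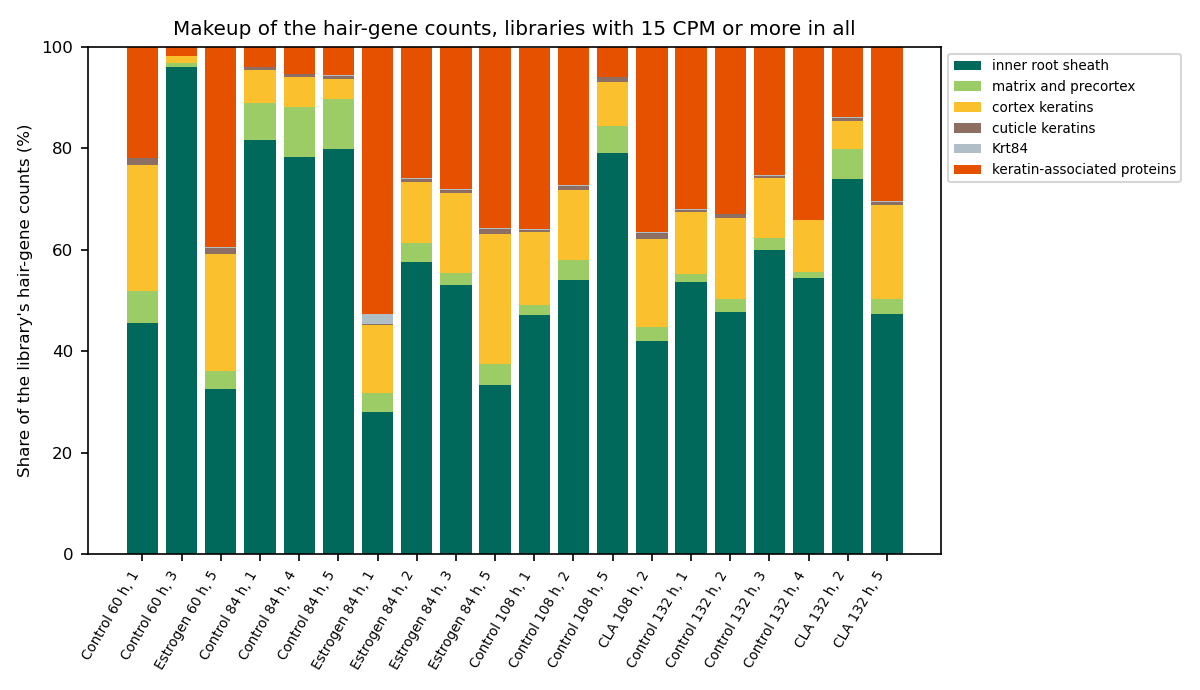
Share of each library's hair-gene counts (percent, stacked to 100) by class, for the 20 libraries with at least 15 CPM of hair genes. Control 3 at 60 h, controls 1, 4 and 5 at 84 h, control 5 at 108 h and CLA 2 at 132 h are mostly inner root sheath; estrogen 5 at 60 h and estrogen 1 and 5 at 84 h hold the smallest sheath shares.

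Within the sheath-rich libraries the shaft genes were unequal. Control replicate 1 at 84 h had 11.3 CPM of Krt35, 3.13 CPM of Hoxc13 and 3.19 CPM of Krt33a. In the same library Krtap8-1 was at 2.25, Krtap7-1 at 1.73 and Krtap11-1 at 2.22 CPM, and Krtap3-1 had no count (under 0.0978 CPM). Krt35 counts were 435% of Krt31 counts there, 839% in control replicate 4 at 84 h and 234% in control replicate 5 at 108 h. In the 5 high controls at 108 h and 132 h that are not sheath-rich, they were 80.4% to 157%.

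Control replicate 3 at 60 h was the extreme case. Its 1080 hair-gene counts were 96.1% inner root sheath, from 15.9 CPM of Krt71, 7.61 CPM of Krt25 and 3.67 CPM of Krt27. Krt35 was at 0.0592 and Krt33a at 0.0296 CPM. Krt28, Krt72 and Krt73 were at 0.858, 0.266 and 0.562 CPM.

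At the other end, estrogen replicate 5 at 60 h and estrogen replicate 5 at 84 h were rich in shaft. Inner root sheath genes gave 32.5% and 33.3% of their hair counts, cortex keratins 23.1% and 25.5%, and keratin-associated proteins 39.4% and 35.7%. Within the latter, the ultra-high sulfur type gave 4.74% and 2.27% of hair counts, against 5.05% to 8.43% in the 5 high controls named above. No group was compared on these shares, since the libraries that carry them are single mice.

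**Figure D4:**
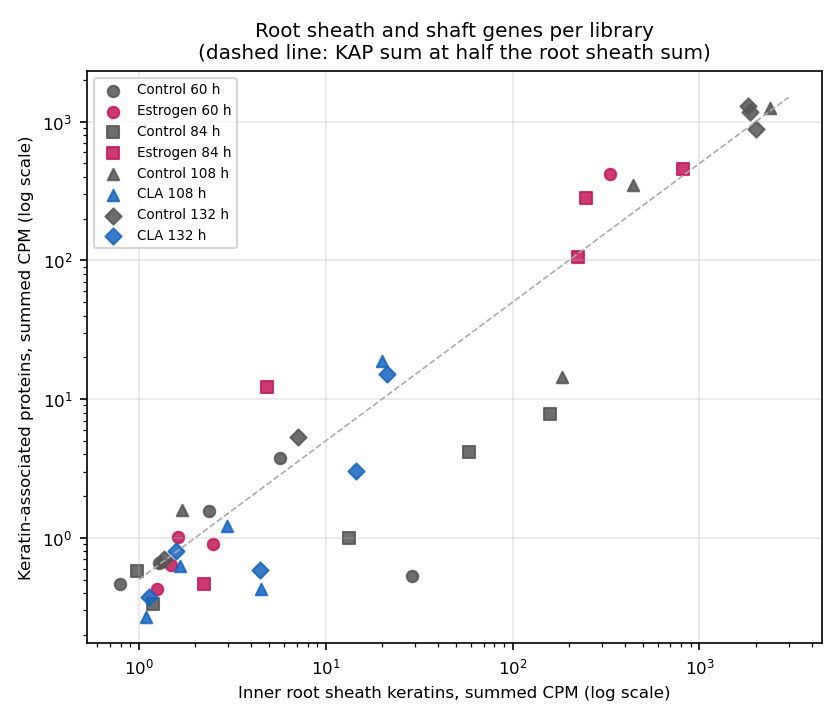
Summed CPM of keratin-associated proteins against that of the 7 inner root sheath keratins, both on log axes, 1 point per library; the dashed line marks keratin-associated proteins at 50% of the sheath sum. Most libraries with much hair RNA lie near the line, and controls at 84 h, 1 control at 108 h and 1 at 60 h lie far below it.

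Hair genes were lower with CLA at both times, and both falls rest on the control libraries high in hair RNA. A gene was called where edgeR's quasi-likelihood test gave a Benjamini-Hochberg adjusted p under 0.05 over all genes tested. At 132 h, 65 of the 76 members passed the filter on low counts and 65 of them fell. Of all 17180 genes tested, 56% were called, 29% lower and 27% higher. Their log2 fold changes ran from −11.32 to −3.78 with a median of −7.20, where the median of all genes was −0.03. Members pass that filter mainly through the high controls, so the count describes them and supports nothing further.

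By class, 8 of 8 inner root sheath genes tested, 7 of 7 cortex keratins, 2 of 2 cuticle keratins and 45 of 45 keratin-associated proteins fell at 132 h. Krt71 fell by 7.05 ± 2.03 on the log2 scale (SE, edgeR adjusted p = 0.00722). Hoxc13 fell by 5.09 ± 1.40 (adjusted p = 0.00509), and Krt33a by 6.81 ± 1.86 (adjusted p = 0.00506). The smallest adjusted p-values were those of Krtap10-4 (0.000349), Krtap4-6 (0.000361), Krtap17-1 (0.000416) and Krtap4-1 (0.000474), all ultra-high sulfur proteins.

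At 108 h, 21 members passed the filter and 21 fell, where 47.9% of 17248 genes were called, 23% lower and 24.9% higher. Here too members pass the filter mainly through the libraries high in hair RNA, so the count supports nothing further. Krt71 fell by 6.68 ± 2.15 (edgeR adjusted p = 0.0168), Krt35 by 7.40 ± 2.30 (adjusted p = 0.0137) and Krtap8-1 by 6.37 ± 2.18 (adjusted p = 0.0230). Padi3 had the smallest adjusted p, 0.00349, with a fall of 4.13 ± 1.04. Without control replicate 2 at 108 h, only 3 of 21 were called, where 8037 of 17392 genes were.

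Control and CLA mice overlapped for all 76 members at both times, since 2 controls of each time lay at the CLA level. The highest library of each member was a control in all 76, at 108 h and at 132 h. The same few high controls held these values, so they are not 76 separate results. For neither count was the share over all genes worked out. With the 11 libraries over 100 CPM left out, a setting chosen after seeing the data, 0 members were called in either comparison by edgeR (0 and 1 at an unadjusted p under 0.05). The log2 fold change was then above 0 in all 15 named members still fitted at 108 h and all 12 at 132 h, with Krt71 at 2.39 and 1.41. That setting drops libraries by the members' own summed CPM, which takes out the high controls and no CLA mouse. Its counts and signs follow from that choice and support nothing further. In limma on log2(RPKM + 0.1), 1 of 21 was called at 108 h and 51 of 65 at 132 h. Of all genes, 8186 of 17248 and 9495 of 17180 were called there.

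Animal numbers in the labels fall into runs, which the labels do not call batches. Among animals 11 to 43, Krt71 was at 194 and 888 CPM in the 2 controls at 108 h and 812 and 715 CPM in the 2 at 132 h, and at 0.151 to 7.82 CPM in the 6 CLA mice. Among animals 112 to 121, the controls at 108 h had 0.389, 0.481 and 79.6 CPM and the CLA mice 1.15 and 1.91 CPM. The single control of that run at 132 h had 0.397 CPM and the single CLA mouse 8.14 CPM, the reverse order. Among animals 78 to 94 at 132 h, 749 and 2.24 CPM stood against 1.89 CPM. With the run as a term in the fit, 21 of 21 members at 108 h and 64 of 65 at 132 h were called. Of all genes tested, 7964 of 17248 and 9336 of 17180 were called in these fits. Members pass the filter mainly through the high controls, so these counts support nothing further.

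**Figure D5:**
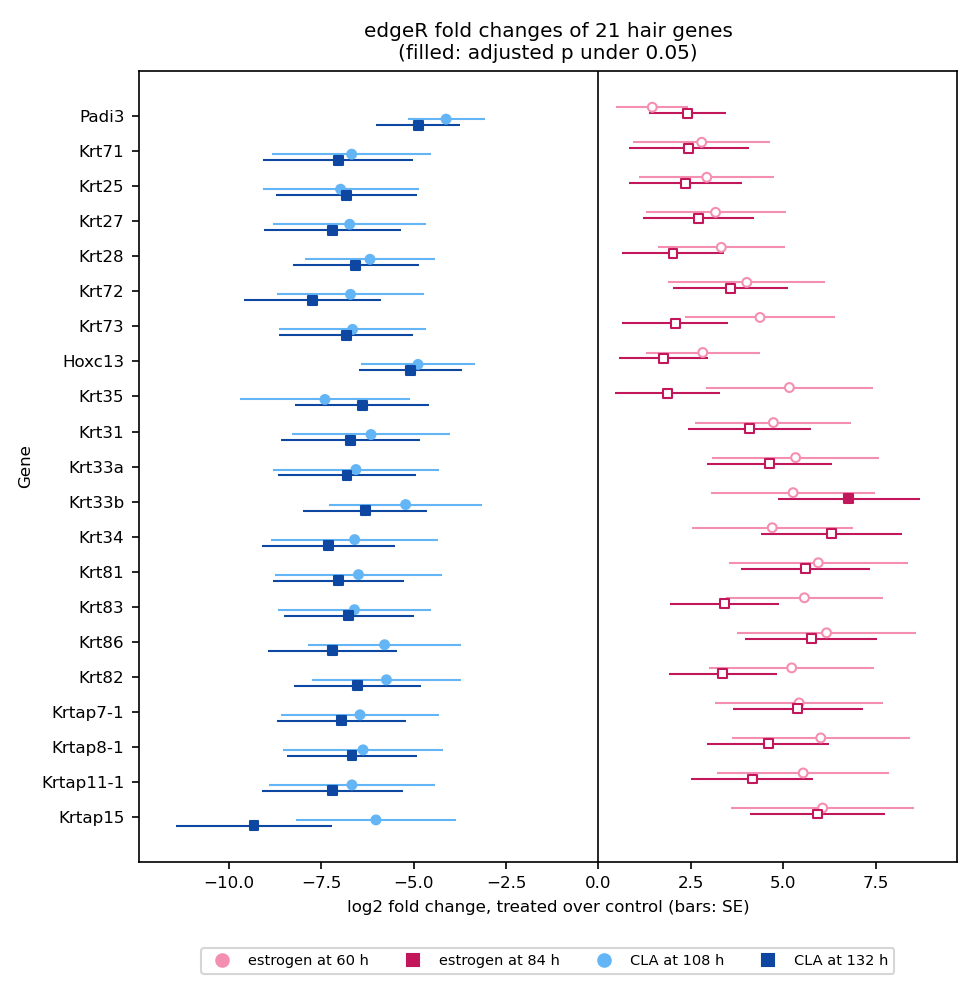
Log2 fold change over the control of the same time, with standard errors, of the 21 members tested in all 4 comparisons; filled marks have an edgeR adjusted p under 0.05. All CLA values lie between −9.33 and −4.13 and are filled, and all estrogen values are above 0 with 1 filled, Krt33b at 84 h.

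Between estrogen and control at 84 h, 5.42% of 17180 genes were called, 3.45% higher and 1.97% lower. Members entered that fit in part through the high controls at 132 h, and 19 passed the filter with the 2 groups alone. Estrogen also cannot be told apart from the run of animal numbers, as given below. Of the 65 members tested, 12 were called higher with estrogen. They were 11 keratin-associated proteins and the cortex keratin Krt33b, which rose by 6.78 ± 1.92 on the log2 scale (SE, edgeR adjusted p = 0.0494). Krtap4-1, an ultra-high sulfur protein, rose by 8.40 ± 2.14 (adjusted p = 0.0291). Its levels were 0.851, 2.91, 11.9, 0.0422 and 4.84 CPM with estrogen and 0, 0.0477, 0, 0 and 0 CPM in controls, so that the lowest estrogen mouse lay among the controls. The others called were Krtap1-5, Krtap3-1, Krtap3-2, Krtap4-6, Krtap4-7, Krtap6-2, Krtap9-3, Krtap17-1, Krtap19-3 and Krtap21-1, with adjusted p-values of 0.0345 to 0.0486.

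None of the 8 inner root sheath genes tested passed at 84 h. Krt71 had a log2 fold change of 2.44 ± 1.63 (edgeR adjusted p = 0.423). The matrix keratin Krt35 had 1.88 ± 1.42 (adjusted p = 0.489), and 3 of its 5 controls were above 1 CPM. The calls at 84 h moved with single libraries. These fits tested 66 to 70 members and called 443 to 1152 of all genes. No member was called without estrogen replicate 3 or without control replicate 1, 2, 4 or 5, 1 was called without control replicate 3 or estrogen replicate 5, 3 without estrogen replicate 2, 16 without estrogen replicate 4 and 20 without estrogen replicate 1. Without the libraries over 100 CPM edgeR called 0 (1 at an unadjusted p under 0.05), and Krt71 stood at −2.51. Those libraries were picked by the members' own sums, so these values support nothing further. DESeq2 called 37 of 65 (1617 of 17180 genes), and limma on log2(RPKM + 0.1) and log2(RPKM + 1) called 0 (929 and 878 genes).

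At 60 h, edgeR called 0 of 21 members with estrogen, where 6.49% of 17248 genes were called, 4.07% higher and 2.42% lower. Members entered that fit in part through the high controls at 108 h, and 4 passed the filter with the 2 groups alone. Of the 21, 14 had an unadjusted p under 0.05. DESeq2 called 6 of the 21 (1878 of 17248 genes), and limma on log2(RPKM + 0.1) called 0 (865 of 17248). The median log2 fold change of the 21 was 5.17. Without estrogen replicate 5, 0 of 21 members had an unadjusted p under 0.05. Krt71 then stood at −2.76 and Krt25 at −2.40.

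All 10 estrogen mice have animal numbers from 138 to 164, a run with no controls, so that estrogen and the run cannot be told apart. By edgeR, the difference between the estrogen effects at 84 h and 60 h was called in 0 of 74 members tested. Of these, 0 had an unadjusted p under 0.05, and 0.0056% of 17852 genes were called. DESeq2 called 8 members, 5 higher and 3 lower, and 17 of 17852 genes. The CLA effect at 132 h against 108 h gave 0 of 74 by edgeR, where 0% of genes were called. Of the 74, 0 had an unadjusted p under 0.05. DESeq2 called 2 members, both lower, and 114 of 17852 genes, but 20 of the 74 had no adjusted p. Members pass the filter mainly through the libraries high in hair RNA, so the DESeq2 counts support nothing further.

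Among the 4 control groups alone, 71 of 74 members tested differed across the times (edgeR adjusted p from 0.00247), against 13.4% of 17852 genes. Members pass the filter mainly through the libraries high in hair RNA and move together, so the count supports nothing further. Runs of animal numbers were spread unevenly over the times, and their part was not tested. Median sums of the 76 genes were 6.25 CPM at 60 h, 18 at 84 h, 244.9 at 108 h and 3485 at 132 h. Krt71 was 6.84 log2 units higher at 132 h than at 60 h, and Krtap3-1 was 9.59 higher. Their edgeR adjusted p-values, 0.0417 and 0.00470, are of the F test over the 4 control groups together. The step from 60 h to 132 h was not tested alone. Krtap19-1, Krtap19-9a and Krtap31-1 did not pass. With the libraries over 100 CPM left out, a choice made on the members' own sums, 0 members passed (4 at an unadjusted p under 0.05). Every time held at least 1 control under 5 CPM.

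Other follicle genes were also called, where 23% of all genes tested were called lower with CLA at 108 h and 29% at 132 h. Of regulators of the follicle, 5 of 9 tested fell with CLA at 108 h and 8 of 11 at 132 h, among them Lef1 (fell by 3.23 ± 0.69 at 132 h, edgeR adjusted p = 0.000658), the mediator of Wnt signals in the matrix, and Foxq1. Of other structural follicle genes, 5 of 8 and 8 of 10 fell, with Tchhl1, a trichohyalin relative, 9.52 ± 1.82 lower at 132 h (adjusted p = 0.000265). With estrogen, Sox9 alone of the regulators rose, by 1.59 ± 0.47 at 60 h (edgeR adjusted p = 0.0495), where 4.07% of all genes were called higher. Sox9 had a count in every library, with a median of 10.9 CPM. In the same comparison 8 of 10 mammary luminal genes rose, and which cells carry Sox9 was not tested.

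Genes of skin outside the hair moved in part with the hair genes. Of interfollicular epidermis genes, 6 of 9 fell with CLA at 108 h and 9 of 11 at 132 h, where 23% and 29% of all genes were called lower. Of basal keratinocyte and outer root sheath genes, 7 of 9 and 9 of 9 fell, Krt17 by 5.56 ± 1.15 at 132 h (edgeR adjusted p = 0.000589). These basal genes are also expressed by mammary myoepithelium. The epidermis sum was 1531, 136.9 and 147.0 CPM in the 3 high controls at 132 h, at inner root sheath sums of 1955, 1898 and 2090 CPM. In the sheath-rich controls 1 and 4 at 84 h and 5 at 108 h, it was 27.8, 18.6 and 30.5 CPM, within the 11.7 to 31.7 CPM of the 5 controls at 60 h.

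Melanocyte genes summed to 127 CPM in control replicate 2 at 108 h, the library with the most hair RNA, and to 8.38 CPM in control replicate 3 at 132 h. Of these genes, 6 of 6 fell with CLA at 108 h and 4 of 6 at 132 h, where 23% and 29% of all genes were called lower. Sebaceous genes summed to 6.47 to 31.0 CPM over all libraries, and 1 of 4 fell at each time, near the shares of all genes. Skeletal muscle sums had their high, 1684 CPM, in control replicate 5 at 84 h, which held 18 CPM of hair genes. Of muscle genes, 7 of 9 fell with CLA at 108 h and 1 of 10 at 132 h, and of adipocyte genes 7 of 8 at each time. Of 10 mammary luminal genes, 0 fell with CLA and 1, Krt7, rose at 132 h, where 27% of all genes were called higher. With estrogen, 8 rose at 60 h and 5 at 84 h, where 4.07% and 3.45% of all genes were called higher. The part of skin in the differences between groups was not tested.

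The deposited RPKM table gave the same split. Krt71 was at 285, 256, 248, 0.722 and 0.133 RPKM in the controls at 132 h and at most 2.91 RPKM in their CLA mice. Tchh differed between tables: it had 10.7 CPM but 137 RPKM in control replicate 1 at 132 h. Its ratio of RPKM to CPM was 12.4, where the median of the members was 0.889. In 20 of the 21 libraries with 0 counts of Tchh, its RPKM was above 0, and which table holds its level was not tested.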

How the data were processed

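Strand-specific poly(A) RNA libraries of 40 mammary glands were made with 10 PCR cycles and run over 4 lanes at about 39 M reads on average, per the labels' protocols. The genome build was GRCm38, per the submitters' processing notes. Which aligner, counter and annotation were used is not given in the sources used here. The authors deposited gene counts in 2 tables (60 h with 108 h, 84 h with 132 h) and RPKM in a matching pair. All sample columns were used. The 76 members, the classes and the gene lists were chosen with earlier results of these data known. A keratin named in the list was not analysed here.

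The deposited counts went into edgeR 4.0.16 (R 4.3.3), scaled by TMM and filtered with filterByExpr at a count of 10 and a total of 15, then into a robust quasi-likelihood fit to the 4 groups of a table, and Benjamini-Hochberg adjustment over all genes tested, with 0.05 as the threshold. Controls across times and differences between effects used 1 fit to all 40 libraries. Each SE was derived as the size of the log2 fold change divided by the root of F. CPM uses TMM-scaled totals over the 40 libraries. Total counts per library were 18.2 to 40.0 M, so 3 counts are about 0.1 CPM. Alternatives were RLE scaling, DESeq2 1.42.0, no filter or a mean of 1 CPM, a fit that was not robust, limma 3.58.1 on log2(RPKM + 0.1) and log2(RPKM + 1), 2 groups alone, the run of animal numbers, each library left out, and, after seeing the data, all libraries above 100 CPM of members left out. Named genes were a fixed panel of keratins, the 3 keratin-associated proteins of each composition type with the highest mean RPKM, 1 each of the families Krtap5, Krtap10 and Krtap12, and the 4 members with the smallest p in each comparison. Other genes, among them Krtap11-1 and the Tchh comparison of tables, were named after their values were seen. Of each list of follicle, skin or gland genes, the 2 called genes with the smallest p could be named. The test was checked on simulated counts. Copies of libraries were sought in 780 pairs and none was found (chi-square per gene at least 12.6). The series' design text calls the 5 mice of a group biological replicates.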

Additional observations from a re-analysis of the deposited data

Results flagged for a closer look

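Libraries that stood apart from the other 4 of their group were sought by Dixon's test on the log2 summed CPM of all members, inner root sheath genes, cortex keratins and keratin-associated proteins, in 32 class and group pairs. Chance marks about 1 in 20 such groups, and 5 were marked, 4 of them the same mouse.

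Estrogen replicate 5 at 60 h held 1066 CPM of all members, where the next highest library of its group held 6.14 CPM. Its inner root sheath sum was 346 CPM (next 4.38), its cortex keratin sum 246 CPM (next 0.548) and its sum of keratin-associated proteins 420.0 CPM (next 1.01). Epidermis genes, at 185 CPM, and muscle genes, at 108 CPM, were also at their group's highest there. Their part in the hair values was not tested.

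CLA replicate 2 at 108 h held 51.3 CPM of all members, where the next highest CLA mouse of that time held 6.75 CPM. It is the highest of the 10 CLA libraries, with keratin-associated proteins at 36.5% of its hair counts.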

How the results depend on the processing

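No paired analysis was possible because each animal number belongs to 1 mouse and replicate numbers only name samples. Counts of called members by edgeR, limma or DESeq2, out of the members tested, moved as follows. Brackets hold the genes called of all genes tested. Estrogen at 60 h had 0 of 21 (1119 of 17248) and DESeq2 gave 6 of 21 (1878 of 17248). Estrogen at 84 h had 12 of 65 (931 of 17180). It gave 0 of 76 with no filter (671 of 28101) and 15 of 56 at a mean of 1 CPM (924 of 14777). When not robust it gave 25 of 65 (992 of 17180), and DESeq2 gave 37 of 65 (1617 of 17180). Limma gave 0 and 0 of 65 with 0.1 and 1 added (929 and 878 of 17180). With 2 groups alone it gave 0 of 19 (1135 of 16344). Without the libraries above 100 CPM it gave 0 of 25 (209 of 17453). A library left out gave 0 to 20, of 66 to 70 tested. CLA at 108 h had 21 of 21 (8261 of 17248). It gave 43 of 76 with no filter (7799 of 28351) and 48 of 49 at a mean of 1 CPM (7916 of 14646). Limma gave 1 and 3 of 21 (8186 and 8153 of 17248), and 2 groups alone gave 7 of 7 (7704 of 16559). Without the libraries above 100 CPM it gave 0 of 19 (6365 of 17798). A library left out gave 3 of 21 (8037 of 17392) to 39 of 39 (7682 of 17454). CLA at 132 h had 65 of 65 (9613 of 17180). It gave 71 of 76 with no filter (9552 of 28101) and 56 of 56 at a mean of 1 CPM (9005 of 14777). DESeq2 gave 64 of 65 (9736 of 17180), and limma 51 and 61 of 65 (9495 and 9520 of 17180). With 2 groups alone it gave 11 of 11 (8550 of 16270). Without the libraries above 100 CPM it gave 0 of 25 (7165 of 17453). A library left out gave 63 of 65 (9215 of 17295) to 70 of 70 (9389 of 17450). Controls across times had 71 of 74 (2385 of 17852). They gave 65 of 76 with no filter (1998 of 29377) and 54 of 54 at a mean of 1 CPM (2166 of 14730). The fit that was not robust gave 72 of 74 (2439 of 17852). DESeq2 gave 53 of 74 (3058 of 17852), where 4 had no adjusted p. A library left out gave 62 to 72 of 74. Without the libraries above 100 CPM they gave 0 of 30 (7 of 18177). Differences of effects had 0 of 74. DESeq2 gave 8 of 74 for estrogen (17 of 17852) and 2 for CLA (114 of 17852), where 20 of the 74 had no adjusted p. With no filter 76 members were tested, and with 2 groups alone 4 to 19. At a mean of 1 CPM, 49 were tested at 60 h and 108 h and 56 at 84 h and 132 h. More members also passed the filter in some fits with a library left out. Without control replicate 4 at 108 h, 39 were tested for CLA, and without control replicate 4 at 132 h, 70 were. For other changes in the counts the cause was not tested.

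Signs turned when the libraries above 100 CPM were left out. Those libraries were picked by the members' own sums, so the turned signs and the counts of 0 follow from that choice and support nothing further. Log2 fold changes for estrogen at 60 h became −0.71 (Hoxc13), −2.37 (Krt25), −2.58 (Krt27), −1.76 (Krt31), −1.37 (Krt33b), −2.64 (Krt35), −2.72 (Krt71) and −1.99 (Krt81). At 84 h not all named members fitted turned: 6 did, 4 became weaker and 1 stayed the same. The 6 that turned became −0.56 (Hoxc13), −2.66 (Krt25), −1.90 (Krt27), −1.86 (Krt31), −2.80 (Krt35) and −2.51 (Krt71). For CLA at 108 h they became 1.03 (Hoxc13), 1.95 (Krt25), 2.66 (Krt27), 0.91 (Krt28), 2.0 (Krt31), 2.07 (Krt33b), 1.66 (Krt35), 2.39 (Krt71), 2.06 (Krt72), 1.74 (Krt73), 1.47 (Krt81), 1.70 (Krtap15), 1.82 (Krtap7-1), 2.36 (Krtap8-1) and 0.07 (Padi3). For CLA at 132 h they became 3.53 (Hoxc13), 2.13 (Krt25), 0.40 (Krt27), 3.48 (Krt31), 1.55 (Krt33b), 1.70 (Krt35), 1.41 (Krt71), 1.58 (Krt81), 0.69 (Krtap3-1), 0.18 (Krtap6-5), 0.34 (Krtap7-1) and 0.75 (Krtap8-1). With 1 library left out, estrogen at 60 h ranged from −0.71 to 3.18 (Hoxc13), −2.40 to 5.00 (Krt25), −2.61 to 4.90 (Krt27), −1.76 to 6.26 (Krt31), −1.37 to 7.02 (Krt33b), −2.65 to 7.09 (Krt35), −2.76 to 4.96 (Krt71), −1.98 to 7.85 (Krt81) and −2.07 to 6.01 (Krt82), each low end without estrogen replicate 5. At these depths, levels under about 0.1 CPM are not told from 0.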
